A study of Mus musculus with 16 samples.

Results

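Skeletal muscle of the head was followed through 34 genes: the myogenic regulators Myod1, Myf5, Myog and Myf6, 21 genes of the sarcomere and its assembly, 6 genes of the muscle side of the nerve-muscle synapse, and 3 genes of adhesion, energy supply and calcium release (Cdh15, Ckm and Stac3). The genes were selected by name from a list of skeletal muscle regulators and structural genes, and all 34 were found among 30286 gene symbols. RNA came from the facial prominences of C57BL/6 mouse embryos at embryonic day 12, in which surface ectoderm and the mesenchyme below it were parted surgically. The 4 groups were wild-type (WT) ectoderm, Esrp1-/- knockout (KO) ectoderm, WT mesenchyme and KO mesenchyme. Each had 4 libraries, and each library pooled 6 to 7 embryos. Esrp1, a splicing regulator of epithelial cells, lacks function in all cells of such an embryo, mesenchyme included. The deposited table holds 1 value per gene and group in TPM, a unit of transcript abundance corrected for depth and transcript length. No difference given here has a replicate check, an error or a test, and the depth behind each value is unknown.

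Skeletal muscle of the face arises from mesoderm of the pharyngeal arches, whereas most connective tissue and bone there comes from neural crest. Committed precursors express the basic helix-loop-helix factors Myf5 and Myod1. Myog then drives withdrawal from the cell cycle and fusion into fibres, and Myf6 acts mainly in older fibres. Fibres build sarcomeres, in which thin filaments of actin, troponin and nebulin slide along thick filaments of myosin, and they gather acetylcholine receptors below the nerve ending. Early fibres use embryonic and cardiac or slow forms of many of these proteins, which adult forms later replace.

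The group labels were checked first. Esrp1 was at 170 TPM in ectoderm of WT, 62.9 in that of KO, 1.01 in mesenchyme of WT and 1.0 in that of KO; it was lower in KO ectoderm but not at 0, and a value for the whole gene does not show which part was deleted. The 10 ectoderm markers had sums of 2910 TPM (WT) and 2249 TPM (KO) in ectoderm and of 17.2 and 17.5 TPM in mesenchyme. The 12 mesenchyme markers, among them Prrx1 and Col3a1, added to 266 TPM in ectoderm of WT, 597 in that of KO, 3387 in mesenchyme of WT and 2450 in that of KO, so that they were higher in KO than in WT ectoderm. The libraries with 2 index barcodes numbered 1, 2, 0 and 2 in the same order of groups, and with 1 value per group the kind of index and the genotype cannot be told apart. In bulk tissue, fewer muscle cells and less RNA per muscle cell cannot be told apart either.

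Muscle RNA was present in WT mesenchyme, with Actc1, Tnnt1, Myl1 and Myog at the top among the 34 genes. The 34 genes added to 660 TPM, and 32 of them were at 1 TPM or more. Actc1, the cardiac form of alpha actin that is also the main actin of embryonic skeletal muscle, was highest at 152 TPM. It was followed by Tnnt1, slow troponin T, at 85.6 TPM, Myl1, a myosin light chain of fast muscle, at 43.6 TPM, and Myog at 43.2 TPM. Tnnc1, the troponin C of slow and cardiac muscle, was close behind at 41.5 TPM. The 2 genes below 1 TPM were Myf6 (0.19 TPM) and Ckm, the muscle creatine kinase (0.14 TPM), both typical of older fibres.

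**Figure D1:**
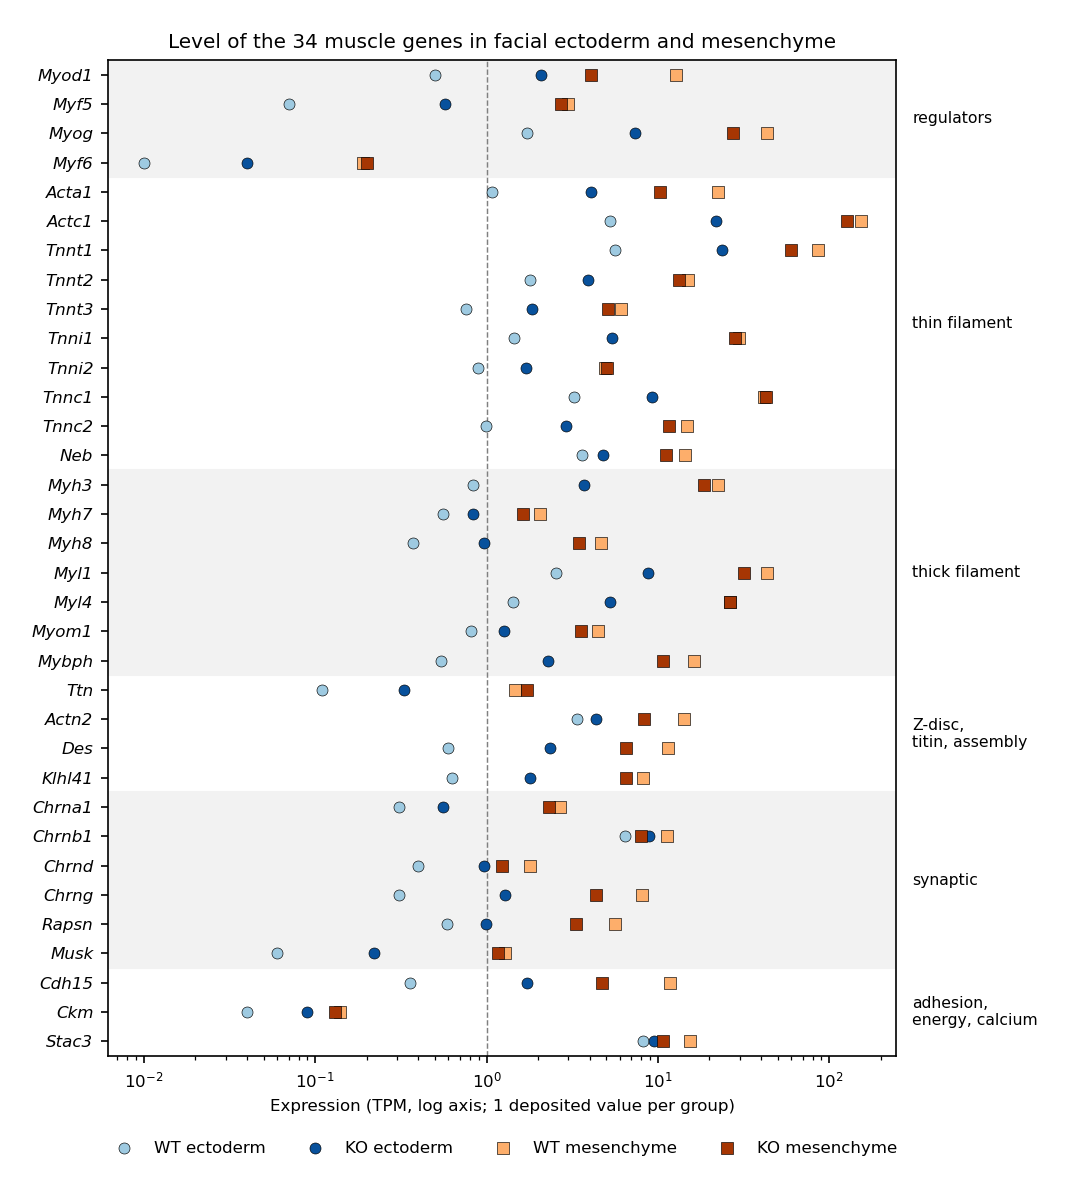
TPM (log axis) of each of the 34 genes in WT ectoderm, KO ectoderm, WT mesenchyme and KO mesenchyme, 1 point per group, ordered by role, with a dashed line at 1 TPM. In nearly every row the order from left to right is WT ectoderm, KO ectoderm and then the mesenchyme values; Chrnb1 is the 1 gene with more TPM in KO ectoderm (8.87) than in KO mesenchyme (8.0).

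The levels of all 4 regulators followed the layer. Myod1 was at 0.50 TPM in ectoderm of WT, 2.09 in that of KO, 12.8 in mesenchyme of WT and 4.06 in that of KO. Myog was at 1.72, 7.32, 43.2 and 27.4 TPM in the same order. Myf5 was at 0.07, 0.57, 3.0 and 2.71 TPM, and Myf6 stayed at or below 0.20 TPM in every group. Myog thus made up the largest share of the summed regulators, 73.0% in WT mesenchyme and 79.7% in KO mesenchyme. Myod1 held 21.6% of that sum in WT mesenchyme and 11.8% in KO mesenchyme, and 21.7% and 20.9% in WT and KO ectoderm.

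Promoter sequences are shown because the regulators act on such genes through short sites. E-boxes, with the letters CANNTG, are the sites of basic helix-loop-helix factors such as Myod1 and Myog, and the CArG box is the site of serum response factor, a regulator of actin genes. The 250 bases before the start site were taken from RefSeq (build GRCm38.p6) for the 26 members that matched; 8 members, Myod1 among them, had no entry. Shown are Myog as the highest regulator, the 2 actins and Chrng, 5′ to 3′ on the strand of the gene, in lower case with each CANNTG and each CArG box in capitals.
Myog, chr1:134289754-134290003, plus strand: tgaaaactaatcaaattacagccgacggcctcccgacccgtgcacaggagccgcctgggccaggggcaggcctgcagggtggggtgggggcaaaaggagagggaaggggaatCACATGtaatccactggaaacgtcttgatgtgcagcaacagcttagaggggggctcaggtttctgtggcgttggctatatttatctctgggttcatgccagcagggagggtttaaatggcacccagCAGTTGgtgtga
Acta1, chr8:123894776-123895025, minus strand: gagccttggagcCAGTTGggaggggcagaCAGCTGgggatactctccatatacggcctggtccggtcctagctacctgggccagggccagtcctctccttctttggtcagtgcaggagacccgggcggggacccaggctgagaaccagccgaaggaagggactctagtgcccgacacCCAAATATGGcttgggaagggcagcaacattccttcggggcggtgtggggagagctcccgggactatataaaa
Actc1, chr2:114052876-114053125, minus strand: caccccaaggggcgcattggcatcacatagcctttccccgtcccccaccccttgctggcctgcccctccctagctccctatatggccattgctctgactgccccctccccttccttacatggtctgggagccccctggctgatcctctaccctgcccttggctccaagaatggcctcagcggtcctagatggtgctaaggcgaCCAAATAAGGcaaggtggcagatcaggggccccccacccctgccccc
Chrng, chr1:87205561-87205810, plus strand: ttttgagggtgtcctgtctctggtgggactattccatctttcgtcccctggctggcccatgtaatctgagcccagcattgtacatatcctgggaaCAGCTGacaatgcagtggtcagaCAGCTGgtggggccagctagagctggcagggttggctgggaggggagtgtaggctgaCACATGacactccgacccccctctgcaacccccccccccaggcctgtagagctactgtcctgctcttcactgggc
Both actin windows hold a CArG box, which begins at position -73 from the start in Acta1 and at -47 in Actc1. Chrng holds 2 E-boxes of the form CAGCTG, beginning at -155 and -132, and a further E-box at -75. The E-boxes of Myog begin at -138 and -12, while the Actc1 window has none. Over the members' windows, 26 of 29 (89.7%) held a CANNTG on either strand, compared with 66.2% of 32851 mouse windows of the same length. The form CAGCTG, which is contained in CANNTG, was in 12 of 29 (41.4%) compared with 13.0%, and the CArG box in 3 (10.3%), those of Actc1, Acta1 and Myom1, compared with 1.47%. Some genes have more than 1 window, and in 16 of the 29 windows the RefSeq start lies inside the GENCODE gene, so that the window is not upstream of every transcript. Of those shown, this holds for Chrng (1154 bases inside), Actc1 (673) and Myog (15) and not for Acta1. A match to these letters is a description, not a bound site.

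Thin filament genes held most of the summed TPM of the 34 genes in mesenchyme. The 10 genes added to 387 TPM in WT mesenchyme, 58.7% of the sum of the 34, and to 315 TPM in KO mesenchyme. Actc1 was at 5.25 TPM in ectoderm of WT, 21.9 in that of KO, 152 in mesenchyme of WT and 127 in that of KO. Acta1, the adult skeletal alpha actin, was at 1.07, 4.09, 22.5 and 10.3 TPM in the same order. Actc1 therefore stood at 6.77 times the TPM of Acta1 in WT mesenchyme and 12.3 times in KO mesenchyme, the same direction of difference as between Myog and Myod1 (3.37 times in WT and 6.74 times in KO mesenchyme). In ectoderm these ratios were 4.91 (WT) and 5.35 (KO) for the actins and 3.44 and 3.50 for the regulators. KO ectoderm was nearest to WT ectoderm in both, and nearer to WT than to KO mesenchyme. The ratio of slow to fast troponins did not share this order. It was 5.93 in KO ectoderm, 6.00 in KO mesenchyme and 6.08 in WT mesenchyme.

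The troponins, the calcium switch of the thin filament, came mainly from slow and cardiac genes. Tnnt1 was at 5.65 TPM in ectoderm of WT, 23.8 in that of KO, 85.6 in mesenchyme of WT and 60.0 in that of KO. Tnni1, slow troponin I, was at 1.44, 5.39, 29.9 and 28.2 TPM, and Tnnc1 at 3.23, 9.26, 41.5 and 42.9 TPM. Tnni1 and Tnnc1 were thus nearly level between the 2 mesenchyme groups, while Tnnt1 was lower in KO. Tnnt2, cardiac troponin T, which embryonic skeletal muscle also makes, was at 1.79, 3.90, 15.0 and 13.3 TPM. The fast forms were lower throughout: Tnnc2 was at 14.8 TPM in WT mesenchyme and 11.7 in KO, Tnnt3 at 6.13 and 5.09, and Tnni2 at 4.91 and 5.07. Summed over T, I and C, slow troponins stood at 6.08 times the TPM of fast troponins in WT mesenchyme, 6.00 times in KO mesenchyme, 5.93 times in KO ectoderm and 3.91 times in WT ectoderm. Neb, the giant ruler protein of the thin filament, was at 3.59 TPM in ectoderm of WT, 4.76 in that of KO, 14.4 in mesenchyme of WT and 11.1 in that of KO.

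Thick filaments were represented by embryonic myosin. Myh3, the embryonic heavy chain, was at 0.83 TPM in ectoderm of WT, 3.72 in that of KO, 22.5 in mesenchyme of WT and 18.6 in that of KO. Myh8, the perinatal heavy chain, was at 0.37, 0.97, 4.63 and 3.47 TPM, and Myh7, the slow and cardiac one, at 0.56, 0.83, 2.04 and 1.63 TPM. The adult fast chains Myh1, Myh2 and Myh4 did not exceed 0.47 TPM in any group. Of the summed heavy chains of striated muscle, Myh3 held 73.8% in WT and 75.5% in KO mesenchyme. The light chain Myl1 was at 2.54, 8.77, 43.6 and 31.9 TPM in the order of the groups above, and Myl4, the embryonic and atrial light chain, at 1.42, 5.29, 26.5 and 26.2 TPM. Myl4 was almost equal in the 2 mesenchyme groups. Mybph, a myosin binding protein, had 16.2 TPM in mesenchyme of WT and 10.7 in that of KO, and Myom1, which links myosin at the M-band, had 4.45 and 3.55 TPM.

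**Figure D2:**
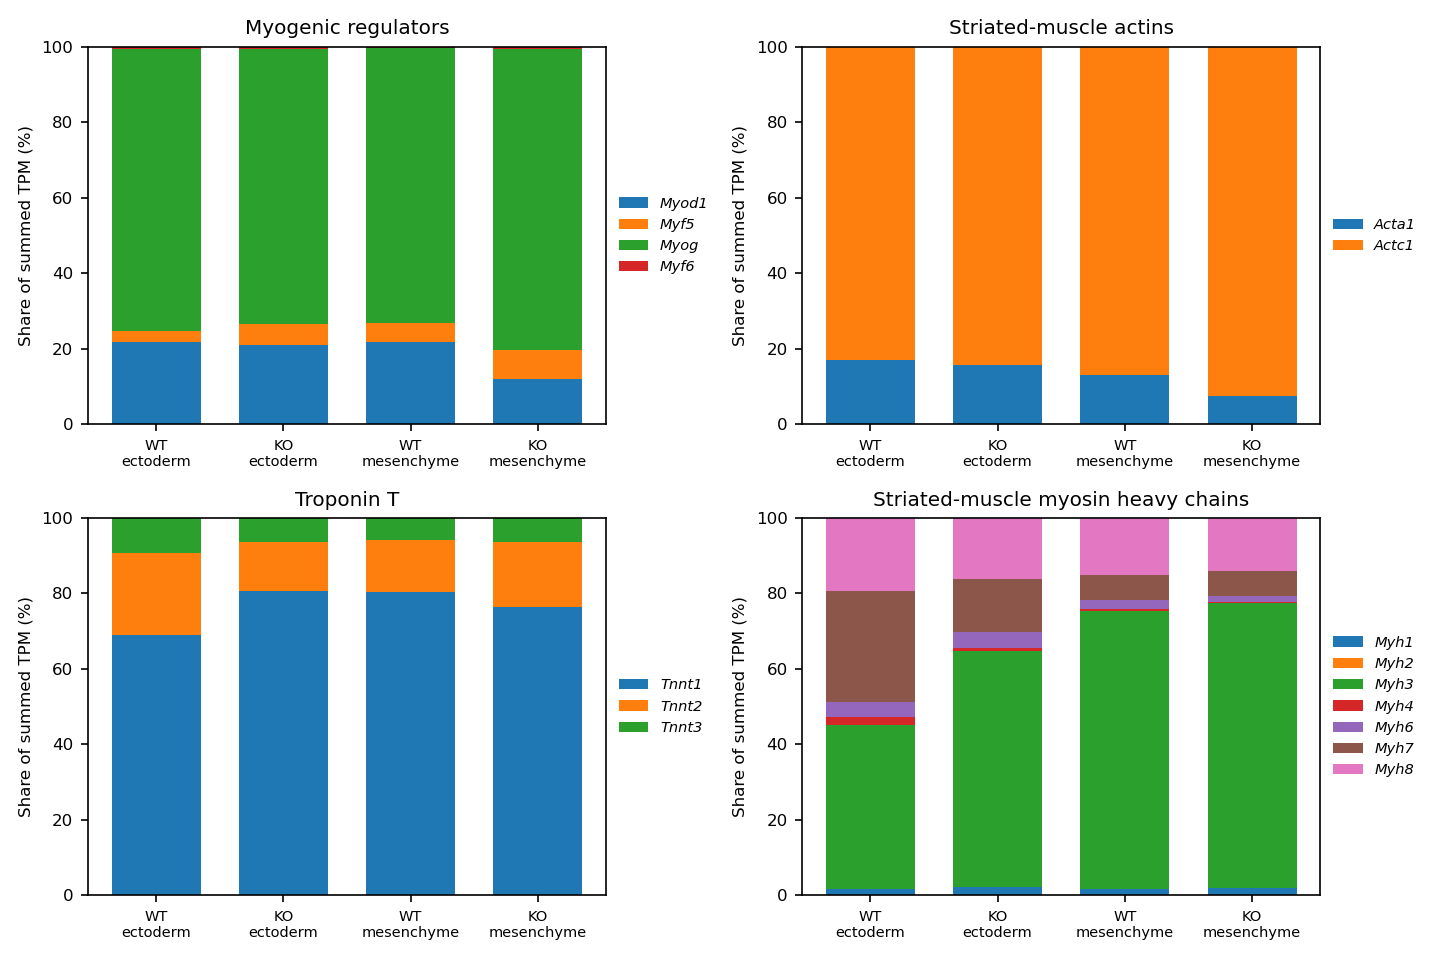
Share of the summed TPM of a gene family (percent, stacked bars) in each of the 4 groups, for the 4 myogenic regulators, the 2 striated-muscle actins, troponin T and 7 heavy chains of striated-muscle myosin. Myod1 and Acta1 hold smaller shares in KO mesenchyme (11.8% and 7.5%) than in WT mesenchyme (21.6% and 12.9%), and Myh3 is the largest part of the heavy chains in every group.

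At the Z-disc and along the sarcomere, Des, the muscle intermediate filament, was at 0.60 TPM in ectoderm of WT, 2.36 in that of KO, 11.5 in mesenchyme of WT and 6.53 in that of KO. Actn2, the alpha-actinin that anchors thin filaments, was at 3.36, 4.34, 14.1 and 8.31 TPM. Klhl41, a kelch protein needed for stable sarcomeres, was at 0.63, 1.79, 8.21 and 6.51 TPM. Ttn, the elastic giant of the sarcomere, was at 0.11, 0.33, 1.46 and 1.72 TPM. Des and Actn2 had lower values in KO mesenchyme than in WT, and Ttn did not.

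The synaptic genes were low, and the fetal receptor subunit far exceeded the adult one. Chrng, the fetal gamma subunit of the acetylcholine receptor, was at 0.31 TPM in ectoderm of WT, 1.28 in that of KO, 8.10 in mesenchyme of WT and 4.34 in that of KO. The adult epsilon subunit, Chrne, was at 0.20 TPM or less in every group. Chrna1, the subunit that binds acetylcholine, was at 0.31, 0.56, 2.70 and 2.31 TPM, and Chrnd at 0.40, 0.97, 1.80 and 1.23 TPM. Rapsn, which clusters the receptors, was at 0.59, 0.99, 5.65 and 3.35 TPM, and Musk, the kinase that starts the clustering, at 0.06, 0.22, 1.28 and 1.17 TPM. Chrnb1 differed from the other 5 by its level in ectoderm, 6.47 TPM in WT and 8.87 in KO, against 11.2 and 8.0 TPM in WT and KO mesenchyme. Stac3, an adaptor of the calcium release channel, was likewise well above 1 TPM in ectoderm (8.22 TPM in WT and 9.53 in KO, against 15.4 and 10.7 in mesenchyme). Cdh15, the cadherin of muscle precursors, had the low ectodermal level of most members, at 0.36 TPM in ectoderm of WT, 1.72 in that of KO, 11.8 in mesenchyme of WT and 4.73 in that of KO.

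In WT tissue, all 34 genes had more TPM in mesenchyme than in ectoderm; after the GC correction described further on, Ckm was the exception. On the scale of log2(TPM + 1), used for every log2 ratio here because it damps noise in low values, the highest ratios of mesenchyme over ectoderm were those of Actc1 (4.62), Myog (4.02), Tnnt1 (3.70) and Myh3 (3.68). A mean of at least 1 TPM over the groups compared was asked for before a gene was counted, and the 4 members below it in this comparison were Myf6, Ckm, Musk and Ttn. Of the other 30, 27 were at least 2-fold higher in mesenchyme, against 12.1% of all genes tested, and none was 2-fold lower. In WT ectoderm 13 of the 34 were at 1 TPM or more, so that others passed the filter only through their mesenchyme value. Without a filter, 29 of the 34 were 2-fold higher, against 7.72% of genes. The median log2 ratio without a filter was 2.28 for the 34 and 0.04 for all genes. Past the filter it was 2.66 for members and 0.15 for all genes tested. In KO tissue the ratios were smaller. The median was 1.16 over the 34, against 0.01 for all genes without a filter and -0.0012 for genes tested. Of the members past the filter, 25 of 31 were at least 2-fold higher in mesenchyme, against 6.88% of genes tested. In KO ectoderm 24 of the 34 were at 1 TPM or more, and without a filter 25 of the 34 were 2-fold higher, against 4.32%. The median member in WT ectoderm stood at 7.12% of its WT mesenchyme level, and in KO ectoderm at 29.4% of its KO mesenchyme level. For mesenchyme markers these medians were 3.69% and 22.9%.

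In KO ectoderm, every one of the 34 genes had a higher value than in WT ectoderm, with the exception of Ckm after GC correction and of Actn2, Chrna1 and Rapsn after the subtraction of mesenchyme given below. The highest log2 ratios were those of Tnnt1 (1.90), Actc1 (1.87), Myog (1.61), Myl1 (1.46), Tnni1 (1.39) and Myl4 (1.38). Without a filter, 18 of the 34 (52.9%) were at least 1.5-fold higher, against 3.41% of genes. A gene low in WT ectoderm passed the filter only through its KO value, and 23 members passed: 17 of these were at least 1.5-fold higher, against 4.92% of all genes tested, and none was 1.5-fold lower, against 0.452%. All genes tested split into 686 higher and 63 lower as deposited, and into 467 and 131 after quantile normalization. Without a filter the sarcomere genes had 14 of 21 at least 1.5-fold higher and a median log2 ratio of 0.98. The regulators had 2 of 4 and 0.80, and the synaptic genes 1 of 6 and 0.36. All genes had a median of 0.03 without a filter and 0.05 past it. Over members past the filter the medians were 1.08 for 18 sarcomere genes and 1.33 for 2 regulators, and 1 synaptic gene passed (0.40). These counts by role moved with the pseudocount. At 0.1 TPM, 26 of the 34 were 1.5-fold higher without a filter, among them every synaptic gene except Chrnb1. Past the filter it was 18 of 23 (78.3%), against 7.05% of all genes tested. At 5 TPM the 7 higher members held no synaptic gene. Read as plain TPM ratios, which are unsteady at low values, the medians of KO over WT ectoderm were 4.22 for regulators, 2.95 for sarcomere genes and 2.12 for synaptic genes. The mesenchyme markers had a median of 3.75 and the endothelium markers of 3.55 on that scale.

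The gain of each member was also set against its level in mesenchyme, as the difference between KO and WT ectoderm over the difference between the WT layers. Among members whose WT mesenchyme value was at least 5-fold the ectodermal one, the median gain was 15.1% for 4 regulators (range 12.9% to 17.1%), 15.2% for 18 sarcomere genes (11.1% to 22.7%) and 11.5% for 4 synaptic genes (7.91% to 13.1%). Of the regulators, Myf5 (17.1%, 0.07 to 0.57 TPM) and Myf6 (16.7%, 0.01 to 0.04 TPM) rest on very low ectodermal values. Myod1 gained 12.9% and Myog 13.5%, close to the upper end of the mesenchyme markers. The same measure gave 10.6% for the 12 mesenchyme markers (6.51% to 13.2%), 9.73% for 8 endothelium markers (7.60% to 12.9%) and 12.6% for 5 tendon markers (9.64% to 20.8%). The highest gains among members were those of Tnnt1 (22.7%), Tnni2 (20.4%) and Tnnt3 (20.3%). In a further setting, 10.6% of WT mesenchyme was subtracted from KO ectoderm, values below 0 were set to 0, and the rest was divided by the remaining fraction. WT mesenchyme was used for this, not KO mesenchyme. Tnnt1, Tnnc1, Myl1 and Myl4 were then the members still at least 1.5-fold higher. They were 4 of the 17 past the filter (23.5%), against 2.64% of all genes tested. The median of members past the filter went from 1.04 to 0.41. The part of carried mesenchymal RNA in the values of KO ectoderm was not tested beyond this subtraction.

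**Figure D3:**
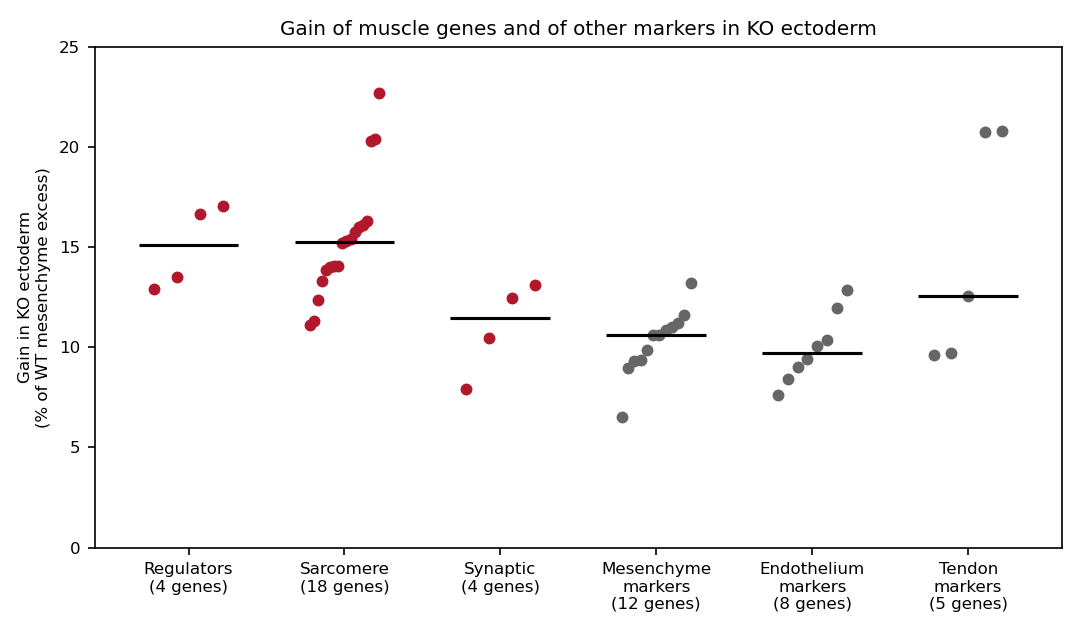
Gain in KO ectoderm (percent of the difference between the WT layers) for genes with at least a 5-fold excess in mesenchyme; each point is a gene and each bar the median of its list. The medians are 15.1% for regulators, 15.2% for sarcomere genes and 11.5% for synaptic genes, beside 10.6%, 9.73% and 12.6% for mesenchyme, endothelium and tendon markers. The range of the regulators (12.9% to 17.1%) overlaps those of mesenchyme and tendon markers and lies just above that of the endothelium markers. Its upper values are those of Myf5 and Myf6, which were below 1 TPM in WT and KO ectoderm.

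In KO mesenchyme, 30 of the 34 genes had a lower value than in WT mesenchyme, most by a small margin. Myod1 had the lowest log2 ratio, -1.45 (12.8 to 4.06 TPM), followed by Cdh15 at -1.16 and Acta1 at -1.06. Chrng (-0.77), Des (-0.73), Actn2 (-0.70), Myog (-0.64) and Rapsn (-0.61) completed the 8 members at least 1.5-fold lower, 25% of the 32 that passed the filter, against 13.4% of all genes tested. With a pseudocount of 5 TPM, 3 of 32 (9.38%) were lower, against 8.0% of genes tested, so that the share was then near that of all genes. None was 1.5-fold higher, against 2.33% of genes tested. All genes tested split into 332 higher and 1902 lower as deposited, 538 and 1217 with median-of-ratios scaling, 639 and 968 after quantile normalization and 666 and 352 after GC correction. The 4 members with ratios above 0 were Ttn (0.14), Tnnc1 (0.05), Tnni2 (0.04) and Myf6 (0.01). Without a filter, the median was -0.30 for the 34 and -0.01 for all genes. Past the filter it was -0.32 for members and -0.12 for all genes tested.

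By role, 2 of 4 regulators, 3 of 21 sarcomere genes and 2 of 6 synaptic genes were at least 1.5-fold lower in KO mesenchyme, with median log2 ratios of -0.37, -0.26 and -0.39. The regulator median includes Myf6, which did not pass the filter. Over members past the filter the medians were -0.64, -0.26 and -0.39. Of those past the filter, the sarcomere share (14.3%) was near the 13.4% of all genes tested, and the other counts rest on 3 and 6 genes. Thick filament genes had none of 7 at that size and ratios from -0.56 (Mybph) to -0.02 (Myl4). The summed TPM of the regulators in KO mesenchyme was 0.58 times that of WT, the sum of the sarcomere genes 0.80 times and the sum of the synaptic genes 0.66 times. Among the markers of other cells, the summed TPM in KO was 0.72 times WT for mesenchyme, 0.73 times for endothelium, 0.60 times for tendon and 1.55 times for neurons, and the sum of the 34 muscle genes was 0.76 times WT. Medians of the single TPM ratios, which do not rest on the most abundant genes, were in another order: 0.77 for regulators, 0.80 for sarcomere genes, 0.70 for synaptic genes, 0.57 for mesenchyme markers, 0.75 for endothelium markers and 0.81 for tendon markers. The 0.77 of the regulators includes Myf6, at 0.19 TPM in WT and 0.20 TPM in KO mesenchyme.

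A correction for the base composition of the transcripts left fewer members low. The median transcript GC content was 54.9% for the 34 genes and 50.7% for all genes tested. After a trend with GC was subtracted, 2 of the 34, Myod1 (-0.91) and Cdh15 (-0.60), were still at least 1.5-fold lower. They were 6.25% of the 32 past the filter, against 2.49% of all genes tested, and Acta1 was at -0.56. The median of all 34, without a filter, was then -0.09, with 15 members above 0 and 19 below. That of all genes past the filter was 0.03. By role the corrected medians were -0.28 for regulators, 0.05 for sarcomere genes and -0.12 for synaptic genes. In ectoderm the same correction left 18 of 34 at least 1.5-fold higher without a filter. Past the filter it left 17 of the 23 (73.9%), against 4.1% of all genes tested. The trend was fitted on genes at 5 TPM or more, and the ratio of Ckm, far below that level, went from -0.01 to 0.45. The part of GC content in the lower values was not tested beyond this correction.

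**Figure D4:**
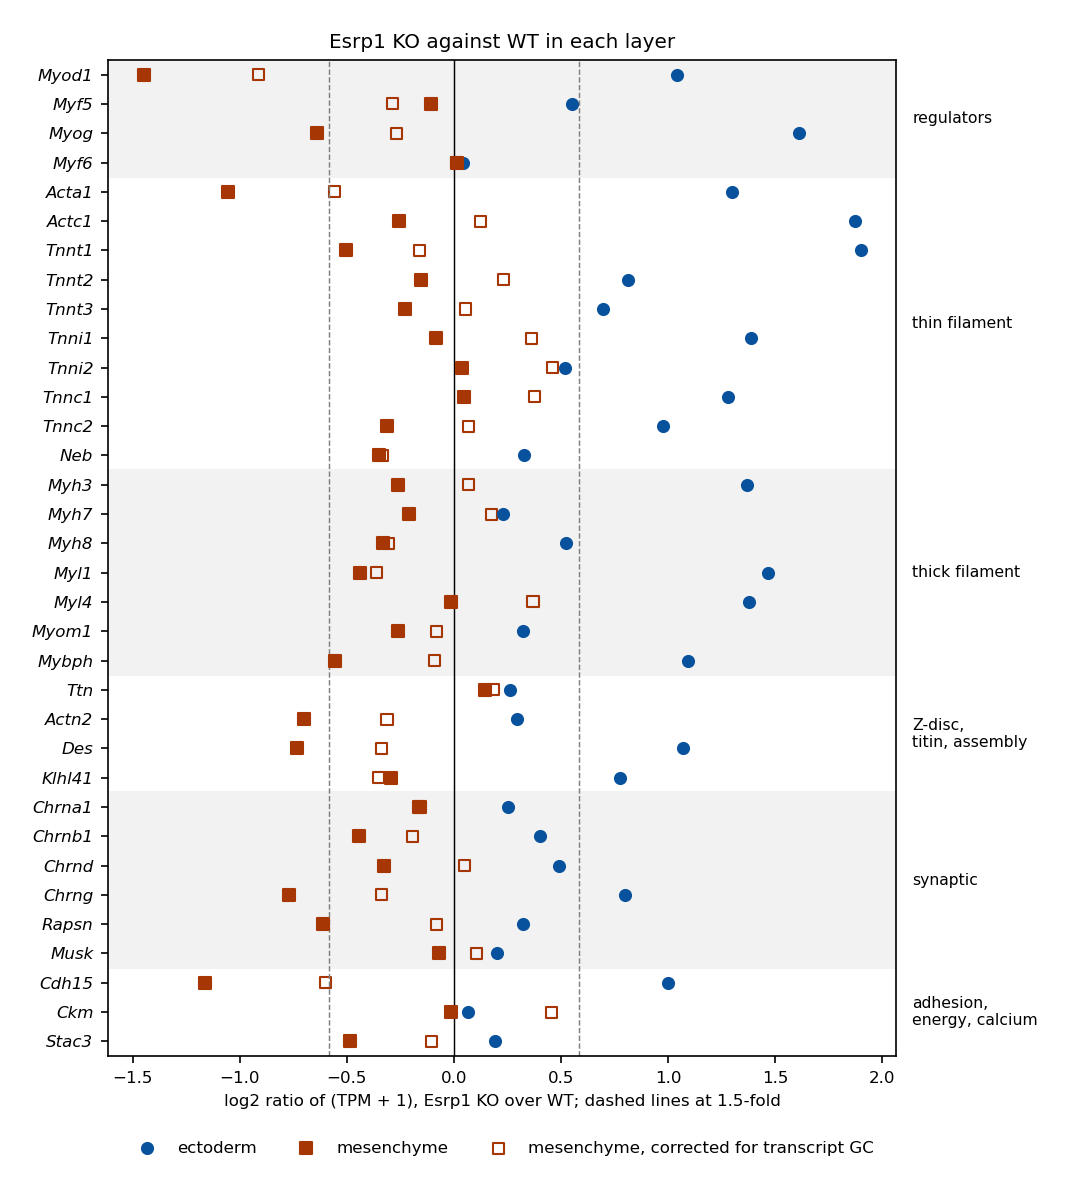
log2 ratio of (TPM + 1) of KO over WT for the 34 genes in ectoderm (circles) and mesenchyme (filled squares), and in mesenchyme after correction for transcript GC (open squares); dashed lines mark 1.5-fold. All circles lie right of 0, most filled squares lie left of it, and after correction Myod1 and Cdh15 are the 2 genes left of the lower line.

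As deposited, the KO values pointed apart in the 2 layers for most members. After GC correction 19 of the 34 were below 0 in KO mesenchyme and 15 above, so opposite directions then held for fewer. A difference of effects below 0 does not need opposite directions. The ratio in mesenchyme minus that in ectoderm was below 0 for all 34 (after GC correction for 31, without Tnni2, Myh7 and Ckm; after the subtraction for 33, without Ttn), and at least 1.5-fold lower for 26 of the 30 members tested over all 4 groups, against 22.9% of genes tested. Members low in ectoderm passed this filter through mesenchyme, and without it 26 of the 34 were lower, against 14.1% of genes. Genes tested split into 337 higher and 3280 lower effects as deposited, 684 and 2184 with median-of-ratios scaling, 1103 and 1685 after quantile normalization and 760 and 1053 after GC correction. The value was lowest for Myod1 (-2.49), Tnnt1 (-2.41), Acta1 (-2.35), Myog (-2.25) and Cdh15 (-2.16). The difference was not tested, since there is 1 value per group. The order of the 34 genes by TPM was closest between the mesenchyme groups, with a Spearman's rho of 0.97. For KO ectoderm, rho was 0.94 with KO mesenchyme, 0.93 with WT mesenchyme and 0.93 with WT ectoderm. WT ectoderm, where Stac3 and Chrnb1 had the highest values, differed most from mesenchyme, with 0.78 (WT) and 0.84 (KO). Each rho is over the 34 and is a description of genes that share libraries.

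Other muscle genes were counted on lists that hold no member, to be read against 13.4% of all genes tested lower and 2.33% higher in KO mesenchyme. Of 15 upstream factors of head muscle, 14 passed the filter, and of these 4 were at least 1.5-fold lower in KO mesenchyme and 1 was higher. Tbx1 (6.92 to 3.31 TPM) and Pax7, a factor of muscle precursors and neural crest (14.1 to 7.38 TPM), were among the lower ones, and Isl1 was the higher one (13.0 to 25.6 TPM). Isl1 (60.0 TPM) and Tbx1 (20.02 TPM) had higher values in WT ectoderm than in mesenchyme, and Pax7 did not (2.95 TPM). Of 12 genes of fusion and the muscle membrane, 11 passed the filter, with 2 lower and none higher. The lower ones were Dysf (16.6 to 8.16 TPM), which repairs the fibre membrane, and Mymk, the fusion protein myomaker (8.13 to 4.58 TPM).

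None of 29 further genes of the contractile apparatus, 15 of them past the filter, was 1.5-fold apart in mesenchyme. Among them Tpm2, a muscle tropomyosin, had 117 TPM (WT) and 82.2 TPM (KO), and Unc45b, a myosin chaperone, had 8.21 and 5.46 TPM. Of 20 genes of excitation, calcium release and energy supply, 2 were lower, 13.3% of the 15 past the filter and so at the share of all genes: Atp2a1, the calcium pump of fast fibres (17.3 to 8.64 TPM), and Pgam2, the muscle phosphoglycerate mutase (15.3 to 8.0 TPM). Of 9 other genes of the nerve-muscle junction, 7 passed the filter, with 3 lower and none higher: Agrn, the nerve-derived organiser of receptor clusters (135 to 72.4 TPM), the neuregulin receptor Erbb3 (14.2 to 7.45 TPM) and Ache, the acetylcholinesterase (5.24 to 3.14 TPM). Agrn and Erbb3 were higher in WT ectoderm (346 and 41.8 TPM) than in mesenchyme. After GC correction none of the upstream, fusion, contractile or energy genes and 1 of the junction genes was 1.5-fold lower in KO mesenchyme. Of those past the filter in KO ectoderm, 8 of 13 upstream factors, 1 of 5 fusion genes and 2 of 8 contractile genes were 1.5-fold higher. The counts were 1 of 12 for energy genes (8.33%) and 1 of 6 for junction genes. They are to be read against 4.92% of all genes tested, from which a count of 1 gene cannot be set apart.

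Markers of other muscle types bear on genes such as Actc1, Tnnt2 and Myl4, which the heart shares. The 9 cardiac markers had sums of 10.6 to 13.6 TPM across groups. Among them Myh6 and Myl7, the atrial myosins, did not exceed 1.45 TPM in any group, Nppa did not exceed 0.92 TPM, Mybpc3 was at 0.01 TPM in each group, and the heart factor Nkx2-5 reached 1.94 TPM in WT mesenchyme. Tnni3, cardiac troponin I, was the exception at 7.72 to 8.90 TPM and nearly level across groups. It lies 1922 bases from Tnnt1 on chromosome 7. Of the smooth muscle markers, Acta2 had 88.8 TPM in mesenchyme of WT and 81.7 in that of KO, and Tagln and Synpo2 were also expressed there (Tagln 14.0 and 17.1 TPM, Synpo2 11.2 and 8.39 TPM). Tagln was higher in ectoderm, at 19.7 TPM (WT) and 30.6 TPM (KO). The other 4 smooth muscle markers, Myh11, Cnn1, Lmod1 and Actg2, did not exceed 1.29 TPM.

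Sequence overlap limits single members. The share of a gene's 31-base words that also occur in transcripts of another gene (GENCODE M21) was 22.9% for Myh7, nearly all with Myh6, 18.6% for Myh8, 14.5% for Myl1, all with the pseudogene Mylf-ps, and 11.1% for Myh3. It was at most 5.79% for the other 30 and 0 for each of the 4 regulators, Chrng and Cdh15. Acta1 (chromosome 8, 123891769 to 123894751, minus strand, GRCm38) and Cdh15 (chromosome 8, 122847966 to 122867397, plus strand) both overlap the annotated span of the gene model Gm20388. On the opposite strand, Tnnc1 overlaps Nisch, Tnnc2 Ube2c, Myom1 Myl12a, Mybph Adora1, Myh7 Gm17428 and Acta1 Gm20388, further members overlap non-coding or antisense genes, and the use of strand in counting is not stated in the sources used here. Myod1 (chromosome 7, 46376474 to 46379099, plus strand) and Myog (chromosome 1, 134289989 to 134292548, plus strand) overlap no other annotated gene.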

How the data were processed

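Messenger RNA was measured in 16 libraries, 4 per group. The authors deposited 1 table of TPM with 1 column per group; the submitters' processing notes name STAR 2.5.2a, kallisto 0.43.0 and build mm10, with no role; neither the tool behind the values nor the way libraries were combined is stated in the sources used here. The columns added to between 917993 and 977371 TPM. A fit per library (limma) had been planned and needs values per library, so it was not run.

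For each of 103 repeated symbols, the row with most TPM was used. log2 ratios were taken of TPM + 1. Genes counted had a mean of at least 1 TPM over the groups compared, and the sizes counted were 1.5-fold between genotypes and 2-fold between layers. A lowess trend (fraction 0.3, statsmodels 0.14.6, fitted at 5 TPM or more) on the median GC of a gene's GENCODE M21 transcripts was subtracted as an alternative; GC was known for 99.0% of symbols and all 34 members. The script was tested on simulated data. Other alternatives were the pseudocount, the filter, 3 scalings, repeated symbols and subtraction of WT mesenchyme from KO ectoderm with rescaling of the rest.

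The 34 members are all reported; of other muscle lists up to 4 genes could be named, by absolute ratio in mesenchyme at 5 TPM or more, and of marker lists up to 4 by level, with further ones chosen after their values were seen. Some genes that this rule allows are not reported here. Members, lists and fold sizes were chosen with earlier results of these data known. Python 3.11.15, pandas 2.3.3 and numpy 2.4.6 were used.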

Additional observations from a re-analysis of the deposited data

How the results depend on the processing

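With 1 value per group, no library could be left out. No paired analysis was possible because the columns carry no replicate numbers. Over 10 other settings, 107 of 138 counts and medians stayed within 1.5 times (counts) or 0.2 (log2 medians). The 138 include counts in the rarer direction, which were 0 in every setting, and adding repeated symbols cannot change a member. The 107 thus overstates how steady the other values were, and all 31 that moved were among those. No median over all members past the filter changed sign. The sarcomere median in KO mesenchyme did, from -0.26 to 0.05 after GC correction. Values below are over members past the filter.

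A pseudocount of 0.1 TPM gave medians of 1.75 for KO against WT ectoderm, 3.71 and 1.69 for mesenchyme over ectoderm in WT and KO, and -1.75 for the difference between the KO effects. A pseudocount of 5 TPM gave 3 lower members in KO mesenchyme (9.38%, against 8.0% of all genes) and 7 higher in KO ectoderm (30.4%, against 1.72%, median 0.39). Its medians between layers were 1.43 (WT) and 0.59 (KO, with 11 higher members, 35.5%, against 2.85%). It gave 17 members with a lower effect in mesenchyme (56.7%, against 14.0%, median -0.67). Without a filter the medians were 0.74 in KO ectoderm and 2.28 between WT layers. A mean of at least 5 TPM left fewer members tested. In KO ectoderm 4 of 6 were higher (66.7%, against 2.92% of all genes, median 1.37). Higher in mesenchyme than in ectoderm were 17 of 19 in WT (89.5%, against 9.78%, median 3.33) and 13 of 16 in KO (81.2%, against 5.51%, median 1.72). A lower effect in mesenchyme was found for 17 of 17 (against 23.7%, median -1.47).

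Quantile normalization gave 5 lower members in KO mesenchyme (15.6%, against 6.88% of all genes), a median of 2.44 between WT layers and -0.80 for the difference of effects. It moved the median of all genes in mesenchyme by 0.14, and median-of-ratios scaling by 0.11, with 6 lower members (18.8%, against 8.59%). Of the 34, 6 and 7 were then above 0 in KO mesenchyme, against 4 as deposited. Correction for GC moved the median of all genes there by 0.16 and gave 2 lower members (6.25%, against 2.49%, with a median of -0.10). Its medians were 1.41 between KO layers and -0.85 for the difference of effects. Subtraction of the mesenchyme share gave 4 higher members of 17 tested in KO ectoderm (23.5%, against 2.64% of all genes) and a median of 0.41. Rescaling columns to equal sums and adding repeated symbols moved no count by over 1.5 times. The count of lower members in KO mesenchyme thus moved with the GC correction, the pseudocount and quantile normalization. The pseudocount and the filter cannot turn the sign of a ratio; of the settings that can, the 3 scalings left all 34 members higher in KO ectoderm, the GC correction 33 and the subtraction 31. Depth is unknown, and members under 1 TPM are the least certain.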
